A study of Arabidopsis thaliana with 9 samples.

Results

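The preys described here are the Arabidopsis genes whose inserts were recovered more often with the bait SOS2 than with the baits PKS5 and SCAB1 in a yeast two-hybrid screen read by sequencing. A gene was taken as such a prey if its level in each of the 3 SOS2 libraries was above its level in all 6 libraries of the other baits. This held for 799 of the 3811 genes with enough reads to be tested, out of 10224 genes in the table. The same rule took 119 genes for PKS5 and 288 for SCAB1. Since the levels themselves chose the 799 preys, their SOS2 levels are given as a description, without a test.

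In a two-hybrid screen the bait is fused to one part of a transcription factor and the proteins of a cDNA library, the preys, to the other part. Yeast in which bait and prey bring the parts together make the HIS3 enzyme and form colonies on medium without histidine. SOS2, PKS5 and SCAB1 are all Arabidopsis proteins, each screened as a bait in 3 libraries, at a recovery time of 0 h (SOS2-1, PKS5-1, SCAB1-1), 2 h (libraries numbered 2) and 4 h (libraries numbered 3). All 9 came from more than 3000 colonies. The selective medium lacked histidine, leucine and tryptophan and held 3-AT, which inhibits HIS3, at 1 mM. The labels name neither the plant tissue of the cDNA library nor separate yeast cultures. The spread that p-values rest on is that of these libraries, and it may be technical. No unselected library is labelled, so the other baits are the background.

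SOS2 (SALT OVERLY SENSITIVE 2, also CIPK24) is a serine/threonine kinase that plants need to tolerate sodium. It is switched on by calcineurin B-like calcium sensors, which bind it and bring it to membranes, and it then phosphorylates the sodium/proton antiporter SOS1 and other transporters. PKS5 (CIPK11) is a kinase of the same family that acts on the plasma membrane proton pump, and SCAB1 holds actin filaments together in bundles.

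Libraries held 1640114 to 3288437 reads. Levels are given as CPM, a gene's reads divided by the library's total and scaled to 1000000, and were not divided by gene length, because each read marks the end of an insert. A count of 0 allows up to 3 reads, which were 0.912 to 1.83 CPM, a limit that covers counting error only. Reads are PCR copies of plasmids from colonies and do not measure binding strength. SOS2-1 stood apart, with 4864 genes at 10 reads or more, against 3238 in SOS2-2, 2966 in SOS2-3 and 1848 to 3457 in the other baits. The mean over SOS2 libraries was 3689 ± 1026 genes, against 2712.5 ± 754 in the other 6 (SD, n = 3 and 6, exact two-sided permutation p = 0.155, the smallest possible being 0.0119). The effective number of genes, the exponential of the Shannon entropy of the read shares, was 284, 106 and 133 in SOS2, against 19.6 to 139 in the other baits (exact permutation p = 0.0357, or 0.0714 after adjustment for both measures). Neither difference passed after adjustment. Counts of genes at 3 reads, at 10 CPM or at 2 distinct reads (8 libraries) did not pass either (exact permutation p = 0.143, 0.167 and 0.0893). Of these cut-offs only 100 reads or more passed, unadjusted, with a mean difference of 522.167 genes per library (exact permutation p = 0.0119, the smallest possible). Without SOS2-1 the rule took 800 of the tested genes.

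The 799 preys took up most of the reads recovered with SOS2. They held 55.1%, 61.9% and 62.5% of the reads in SOS2-1, SOS2-2 and SOS2-3, against 2.64%, 1.02% and 2.90% in the PKS5 and 4.65%, 3.31% and 3.11% in the SCAB1 libraries. The 10 highest, with MEE14 and the SnRK1 subunit AKINBETA1 at their head and AT4G16190, AT4G24290, RSR4, CAT3, PR4, AT2G35810, AT1G69890 and SAL1 after them, made up 25.6%, 38.0% and 30.9% of SOS2 reads. The remaining 789 preys, which are the subject of the rest of the text, still made up 29.5%, 23.9% and 31.6% of SOS2 reads, against 0.831% to 3.83% in the other libraries.

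**Figure D1:**
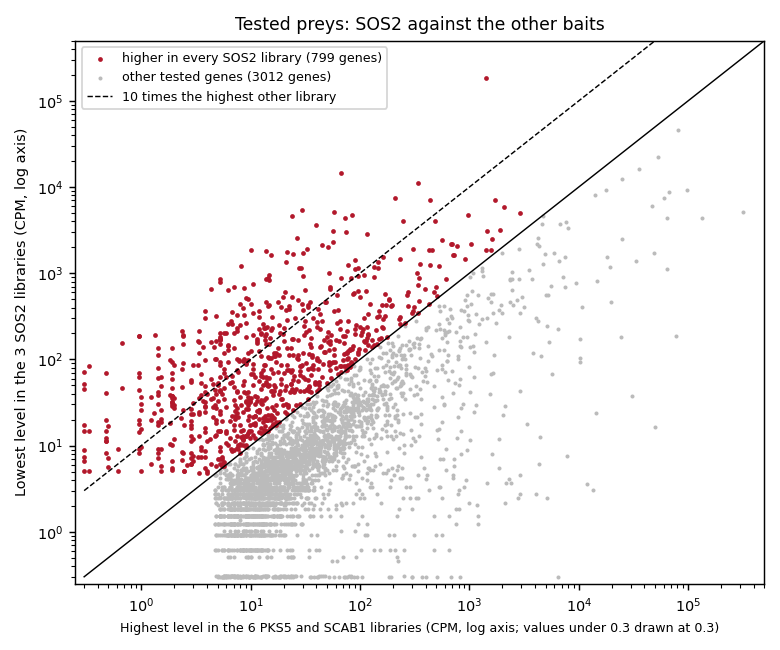
Each point is 1 of the 3811 tested genes, placed by its highest level in the 6 PKS5 and SCAB1 libraries (horizontal, CPM, log axis) and its lowest level in the 3 SOS2 libraries (vertical, CPM, log axis). The 799 red genes lie above the solid line of equal levels, and those above the dashed line were at least 10 times higher in SOS2.

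The distance between SOS2 and the other baits varied widely among the preys. The lowest SOS2 level was a median 4.10 times the highest other level among preys with a read elsewhere. Among all preys it was at least 2 times in 592 and under 1.5 times in 139. It was at least 10 times in 259 preys, of which 9 had no read in any other library, and at least 100 times in 18 of those with a read elsewhere. No PKS5 read was found for 15 preys and no SCAB1 read for 33. In the test across all genes, limma-voom with Benjamini-Hochberg adjustment and a threshold of 0.05, 1035 genes (27.2% of those tested) were higher and 511 (13.4%) lower in SOS2 than in the mean of the other baits. Higher genes were thus 66.9% of the calls, and 85.0% when libraries were scaled by their totals alone (886 higher, 156 lower) or 58.0% with relative log expression factors (919 higher, 665 lower). They were 54.5% without SOS2-3, 56.4% without SCAB1-1 and 50.5% among the 1233 genes with at least 100 reads. The median log2 difference of all tested genes was 0.57 with totals alone, -0.04 with relative log expression factors and 0.16 with the TMM factors used here. Of the preys 793 were among the higher, which follows from how they were chosen, and 242 other genes were called higher without meeting the rule. Against PKS5 alone 944 genes (24.8%) were called higher, against SCAB1 alone 972 (25.5%), and 753 (19.8%) in both comparisons, which share the SOS2 libraries. Genes that met the rule made up 21.0% of those tested for SOS2, 3.12% for PKS5 and 7.56% for SCAB1. Of the preys 177 reached the level of the filter, 4.74 CPM, only in SOS2 libraries, and so could not have been tested without being higher there. Preys that reached it in some but fewer than 3 other libraries also passed the filter only through SOS2, and are not counted in the 177. Shares of preys among the tested genes of a class or family, given below, may in part follow from this.

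On both sides of the rule the values lay close together. AT4G24440, SDH2-2, CBSX3, AT4G13010 and H2AXA were just inside, with a lowest SOS2 level 1.00 to 1.01 times the highest other level. ABCG19, SCPL49, ENODL18, AT4G19420 (pectin acetylesterase PAE8) and SDR3 were just outside, at 0.982 to 0.993 times. ENODL18, an early nodulin-like protein, had 19.6, 15.4 and 5.17 CPM in the SOS2 libraries, against 4.74, 0.33 and 2.87 CPM in PKS5 and 3.0, 5.25 and 4.27 CPM in SCAB1. H2AXA, a histone H2A variant, had 157, 131 and 75.4 CPM in the SOS2 libraries, against 49.7, 30.1 and 71.8 CPM in PKS5 and 74.9, 18.8 and 23.8 CPM in SCAB1. In ENODL18 the groups overlapped through SOS2-3, its lowest SOS2 library, and in H2AXA they did not overlap.

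Which SOS2 library was highest went with the level of the prey. Among 82 preys with a mean of 1000 CPM or more, 47 were highest at 4 h, 20 at 2 h and 15 at 0 h. Among 387 preys under 100 CPM, 259 were highest at 0 h, 57 at 2 h and 71 at 4 h. The 330 in between were highest at 0 h in 169 cases, at 2 h in 39 and at 4 h in 122. SOS2-1 is also the library with the most genes, and recovery time and library cannot be told apart. The abundant preys were the most even, with a median ratio of highest to lowest SOS2 library of 1.49, against 1.90 for those under 100 CPM. They also stood further from the other baits, with a median distance of 12.8 times, against 6.47 times at 100 to 1000 CPM and 2.95 times under 100 CPM. The distance and the grouping both use the SOS2 level, so this trend follows in part from how they were computed. Preys with no read in any other library have no such distance and are not in these medians. The highest of the other libraries was PKS5-3 for 315 preys, SCAB1-1 for 250 and PKS5-1 for 172. Levels in PKS5 were on average above those in SCAB1 for 559 preys and below them for 231.

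The number of distinct reads gives a second view of how broadly a prey was recovered. The preys had a median of 8, 8 and 9 distinct reads in SOS2-1, SOS2-2 and SOS2-3, 724 had at least 2 in every SOS2 library, and 300 had at least 10. A distinct read stood for 45.9 to 137 reads. By distinct reads, in the 8 libraries where they could be used, 382 genes met the rule, of which 335 were among the 799 preys (41.9% of the preys and 87.7% of the 382). The same test on distinct reads called 375 of the preys higher. Of the 114 genes named by rule 41 lost their call or changed direction in it, among them all 5 preys just inside the rule. Of the preys among the 114 that are described below, CIPK7, GRF6, PAG1, CYT1, MTHFR2, NIP1;2, CNGC5, NRT1.1, LSP1, MET1, LTP5, XTH4, AT5G10980 and AT5G60390 lost theirs, as did others whose values are given beside them. Preys below that were not among the 114, such as many genes of families, were not looked up singly by distinct reads. For them no kept call is implied.

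The 20 preys ranked 11 to 30 had means of 2630 to 6152 CPM in SOS2, and 11 of them were at least 10 times above every other library. AT5G45500 and AT3G05250, for which the tables used here give no function, had the widest distance, 184 and 195 times. AT5G45500 had 5461, 5518 and 7476 CPM in the SOS2 libraries, against 26.5, 9.58 and 29.7 CPM in PKS5 and 5.5, 2.62 and 1.83 CPM in SCAB1. AT3G05250 had 5802, 4673 and 6918 CPM in the SOS2 libraries, against 22.7, 9.91 and 23.9 CPM in PKS5 and 14.5, 4.81 and 5.49 CPM in SCAB1. Both were low in each PKS5 and SCAB1 library and differed little between the SOS2 libraries. A further 6 genes without a function text, AT5G66180, AT1G03220, AT3G63390, AT5G60390, AT1G07930 and AT3G01340, ranged from 2669.6 to 5644 CPM in SOS2. AT5G66180, AT5G60390 and AT1G07930 were also recovered with SCAB1, at up to 964, 1909.7 and 1039 CPM, and AT1G07930 reached 421 CPM in PKS5.

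Among those of rank 11 to 30 with a known product were stress-inducible and cytoskeletal proteins. RD22, a dehydration-responsive protein of the cell wall, had 3100.0, 3536 and 4774 CPM in the SOS2 libraries, against 35.5, 16.9 and 56.5 CPM in PKS5 and 25.5, 14.4 and 9.15 CPM in SCAB1. ACT7, an actin of growing tissue, had 5261, 4029 and 6299 CPM in the SOS2 libraries, against 13.7, 5.29 and 28.7 CPM in PKS5 and 213, 249.6 and 219 CPM in SCAB1. ESE3, named as an ethylene and salt inducible factor, had 2278, 3144 and 2544 CPM in the SOS2 libraries, against 28.9, 17.2 and 57 CPM in PKS5 and 29.5, 7.43 and 4.27 CPM in SCAB1. All 3 were low in every PKS5 library, and of the 3 only ACT7 was also recovered with SCAB1 at more than 200 CPM. AQI, an aquaporin interactor, reached 2872, 2097 and 3689.6 CPM in SOS2, against at most 122 CPM in PKS5 and 766 CPM in SCAB1. NIT1, a nitrilase that can form auxin from its nitrile, had 3135, 2452 and 3844 CPM in the SOS2 libraries, against at most 564 CPM in any other library.

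**Figure D2:**
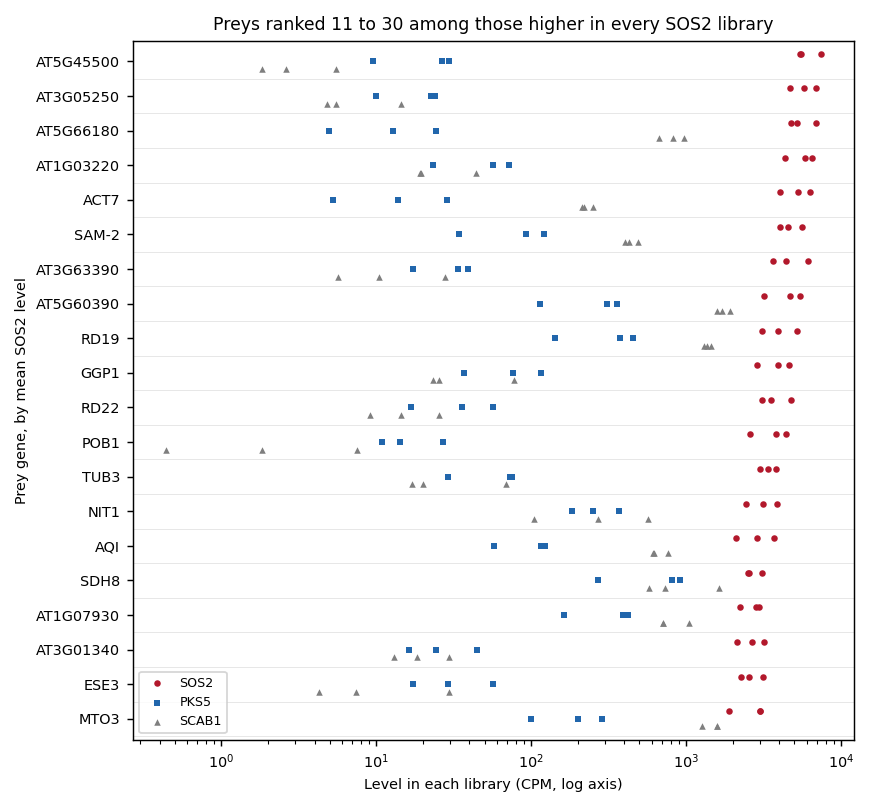
Levels (CPM, log axis) of the 20 preys ranked 11 to 30, with 1 symbol per library: red circles for SOS2, blue squares for PKS5 and grey triangles for SCAB1. The SOS2 symbols, at means of 2630 to 6152 CPM, lie to the right of all others in every row, closest in MTO3, SDH8 and AT5G60390.

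Lower in rank, several annotated preys were at least 100 times above every other library. They were picked after their values had been seen. CNX5, an enzyme of molybdenum cofactor synthesis, had 2216, 1864 and 2142 CPM in the SOS2 libraries, against 5.21, 3.3 and 10.1 CPM in PKS5 and 0.999, 1.31 and 1.22 CPM in SCAB1. BIO2, the biotin synthase, had 2198, 1817 and 2401 CPM in the SOS2 libraries, against 6.63, 3.63 and 13.9 CPM in PKS5 and 0.999, 0 and 0.61 CPM in SCAB1. Reads of both were found with SCAB1 at no more than 1.31 CPM, a level that 3 reads would give. RDR1, an RNA-dependent RNA polymerase of antiviral silencing, had 306, 186 and 269 CPM in the SOS2 libraries, against at most 0.957 CPM in any other library. ETFALPHA, the alpha subunit of the electron transfer flavoprotein of mitochondria, had 137, 88.1 and 83.3 CPM in the SOS2 libraries, against at most 0.33 CPM in any other library. RPT2a, an ATPase of the proteasome, had 252, 262 and 189.8 CPM in the SOS2 libraries, against at most 1.32 CPM in any other library. PRR2 (pinoresinol reductase 2), RHS19 (root hair specific 19), GAUT4 (a galacturonosyltransferase), GER2 and KICP-02 completed the annotated ones, at 198 to 2369.9 CPM on average in SOS2. The 9 preys with no read elsewhere were low, and included ARP9, an actin-related protein, at 79.7, 45.6 and 89.1 CPM, and PRORP2, a protein-only RNase P, at 53.7, 58.9 and 52 CPM.

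Gene functions were assigned from symbols and names in RefSeq. Of the 799 preys, 244 fell into 1 of 25 function classes, 227 had a text that matched no class and 328 had no text, against 1024, 1035 and 1752 of the tested genes. A class holds only genes whose text names its function, so its counts understate it. The share of preys, 21.0% over all tested genes, was 44.4% for amino acid and one-carbon metabolism (20 of 45), 37.5% for glycolysis and carbohydrate metabolism (15 of 40), 36.2% for defence and specialised metabolism (21 of 58) and 32.2% for redox and detoxification (19 of 59). It was lower for vesicle traffic (8 of 60), transporters and pumps (11 of 80), chromatin and DNA (3 of 26) and calcium-binding proteins (1 of 11), and no prey was found among 17 chaperones. These shares are descriptions and were not tested. Numbers called higher and lower in a class, given below, stand beside 27.2% and 13.4% of all tested genes.

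**Figure D3:**
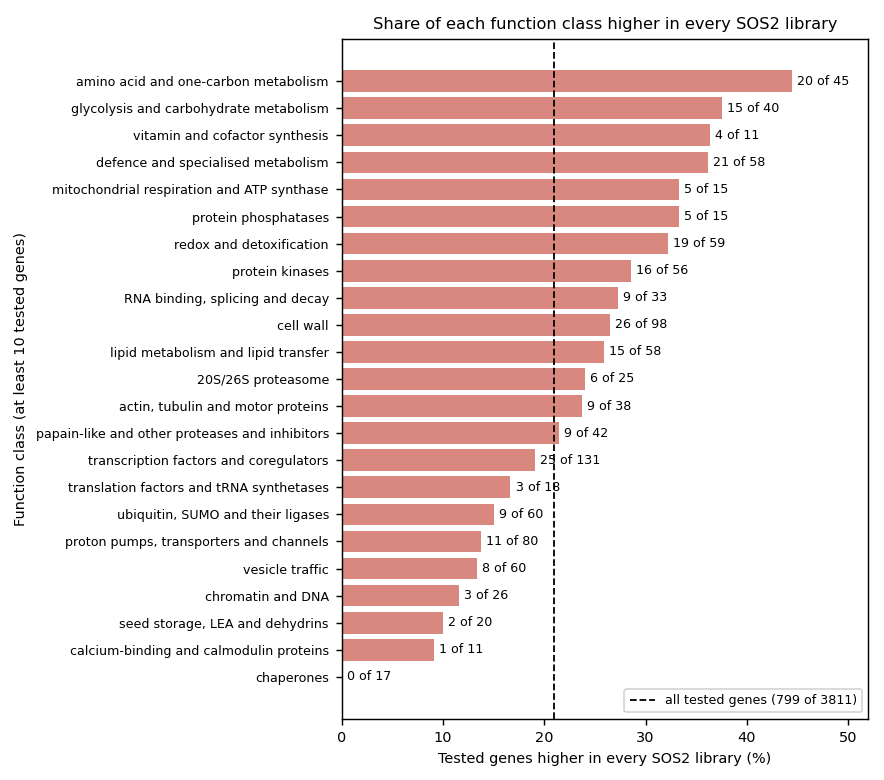
Share of the tested genes of each function class that were higher in every SOS2 library (percent), for the classes with at least 10 tested genes, with the numbers beside the bars. The dashed line marks 21.0%, the share over all 3811 tested genes, and amino acid and one-carbon metabolism lies highest, at 44.4%.

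SnRK1, a relative of SOS2, is the kinase by which plant cells respond to low energy, and is built of a catalytic alpha, a beta and a gamma subunit. All 4 of its tested subunits were preys of SOS2, of 5 in the table and 7 listed, with a median log2 difference from the other baits of 6.50, against 0.16 over all tested genes. Beside AKINBETA1, a beta subunit named above, they were a second beta subunit, a gamma-type subunit and a catalytic one. AT4G16360 (KINbeta2) had 276, 163 and 225 CPM in the SOS2 libraries, against 2.37, 0 and 4.79 CPM in PKS5 and 0, 0.437 and 1.22 CPM in SCAB1. KING1, the gamma-type subunit, had 157, 121 and 76.3 CPM in the SOS2 libraries, against 7.58, 0.33 and 5.26 CPM in PKS5 and 0.999, 0.874 and 1.22 CPM in SCAB1. KIN10, the catalytic subunit, had 106, 54.8 and 88.5 CPM in the SOS2 libraries, against 4.74, 0 and 6.7 CPM in PKS5 and 6.5, 3.06 and 4.27 CPM in SCAB1. The highest PKS5 or SCAB1 level of the 3 was 7.58 CPM. AKINBETA1, at 14434, 23288 and 16310.5 CPM, was far above them in every SOS2 library. KIN11, the other catalytic subunit, had too few reads to be tested. Outside SOS2, AT4G16360 reached the filter level of 4.74 CPM only in PKS5-3, and KING1 only in PKS5-1 and PKS5-3. These were too few libraries for either to be tested without SOS2, so the share and median of the subunits follow in part from the filter.

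SOS2 belongs to the CIPK kinases, of which 16 of 26 were in the table and 7 could be tested. CIPK15, CIPK9 and CIPK7 were preys. CIPK9 stayed under the filter level of 4.74 CPM in every other library, and CIPK15 reached it there only in PKS5-3 and SCAB1-1. CIPK9 and CIPK15 could thus be tested only by being higher in SOS2. CIPK15 had 135, 99.9 and 244 CPM in the SOS2 libraries, against 0.948, 1.98 and 6.22 CPM in PKS5 and 7.49, 2.19 and 0.61 CPM in SCAB1. CIPK9, which acts in potassium nutrition, had 57.8, 24.6 and 50.5 CPM in the SOS2 libraries, against 2.37, 0.991 and 3.83 CPM in PKS5 and 2.5, 0.437 and 0.61 CPM in SCAB1. CIPK7 was lower, with 26.4, 11.3 and 13.7 CPM in SOS2, against at most 7.18 CPM elsewhere. SIP4, the gene of PKS5 itself, was recovered as a prey with all baits and was lower with SOS2, with 701, 426 and 926 CPM in the SOS2 libraries, against 1659, 1648 and 1933 CPM in PKS5 and 1183, 1416 and 987 CPM in SCAB1 (log2 difference -1.59 with SE 0.54 and limma-voom adjusted p = 0.0196). Its call was lost without SOS2-1, SOS2-2 or PKS5-2 (adjusted p = 0.107, 0.148 and 0.0653 by limma-voom). CIPK4 was also called lower, at 9.56, 2.05 and 1.52 CPM in SOS2, against 9.0, 3.97 and 9.57 CPM in PKS5 and 18, 19.2 and 13.4 CPM in SCAB1 (log2 difference -1.94 with SE 0.50 and limma-voom adjusted p = 0.00318). SOS2 itself, which was not tested for want of reads, averaged 3.64 CPM in SOS2 libraries and stayed at or under 0.479 CPM elsewhere.

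Of the calcium sensors that bind SOS2 in plants, 7 of 10 were in the table and none had enough reads to be tested. SOS3, the sensor of the salt pathway, averaged 0.152 CPM in SOS2 libraries and was at 0 elsewhere, and CBL10 averaged 1.67 CPM, against up to 2.39 CPM in the others. SOS1, the antiporter, averaged 0.171 CPM in SOS2 libraries, against up to 0.999 CPM in the others. A difference in these genes was not detectable at this depth. Over the 25 partners of SOS2 listed from the literature, 19 were in the table, 10 were tested, 4 were called higher and 2 lower, with a median log2 difference of 0.08, against 0.16 over all tested genes.

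Those of the partner list that were preys were CAT3 and CAT2, catalases that break down hydrogen peroxide, and BIN2, a GSK3-like kinase of brassinosteroid signalling. BIN2 had 29.6, 13.3 and 10.3 CPM in the SOS2 libraries, against 5.21, 1.32 and 5.74 CPM in PKS5 and 7.99, 2.62 and 0.61 CPM in SCAB1, and CAT2 had 45.5, 14.9 and 17.9 CPM in the SOS2 libraries, against at most 13.7 CPM in any other library. Both were low, and neither overlapped with the other baits. The call of CAT3 was lost without SOS2-3 (limma-voom adjusted p = 0.14). By distinct reads CAT3, CAT2 and BIN2 had log2 differences of 0.07, 0.04 and 0.60, and none was called (limma-voom adjusted p = 0.706, 0.942 and 0.121). VAB3, a subunit of the vacuolar proton pump, was called higher although its libraries overlapped, with 39.6, 16.9 and 10.3 CPM in the SOS2 libraries, against 9.95, 1.98 and 12.9 CPM in PKS5 and 4.0, 5.25 and 2.44 CPM in SCAB1 (log2 difference 1.57 with SE 0.38 and limma-voom adjusted p = 0.00166). Without SCAB1-1 its limma-voom adjusted p was 0.0753. VAB2, a near relative of VAB3, was called lower, at 15.5, 6.66 and 2.13 CPM, against 12.8, 7.27 and 17.2 CPM in PKS5 and 20.5, 7.0 and 6.71 CPM in SCAB1 (log2 difference -1.17 with SE 0.38 and limma-voom adjusted p = 0.0174). The sources used here do not say how reads of such near relatives were divided. ABI1, EIN3 and MPK6 did not pass. ELC did not pass against the mean of the other baits (limma-voom adjusted p = 0.114), from which it differed in opposite directions. It was higher than in PKS5 (log2 difference 2.40 and limma-voom adjusted p = 0.00417) and lower than in SCAB1 (log2 difference -4.29 and limma-voom adjusted p = 1.62e-07). Its means were 21.0 CPM in SOS2, 2.98 CPM in PKS5 and 247 CPM in SCAB1.

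The 14-3-3 proteins, which bind phosphorylated proteins and hold SOS2 inactive in the absence of salt, were represented by 8 tested genes of 12. GRF6 (14-3-3 lambda) was the only one that was higher in every SOS2 library, with 199, 112 and 105 CPM in the SOS2 libraries, against 71.5, 25.4 and 77.5 CPM in PKS5 and 74.4, 19.2 and 20.1 CPM in SCAB1. GRF10 was called higher with overlapping libraries, at 43.7, 32.3 and 12.2 CPM in SOS2, against 14.7, 4.63 and 15.8 CPM in PKS5 and 8.99, 3.93 and 3.66 CPM in SCAB1 (log2 difference 1.39 with SE 0.34 and limma-voom adjusted p = 0.00158). GRF2 was called higher (log2 difference 1.09 with SE 0.40 and limma-voom adjusted p = 0.0315), but lost the call when any single library other than PKS5-2 was left out, with adjusted p-values up to 0.143. The median log2 difference of the 8 was 0.29, against 0.16 over all tested genes.

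**Figure D4:**
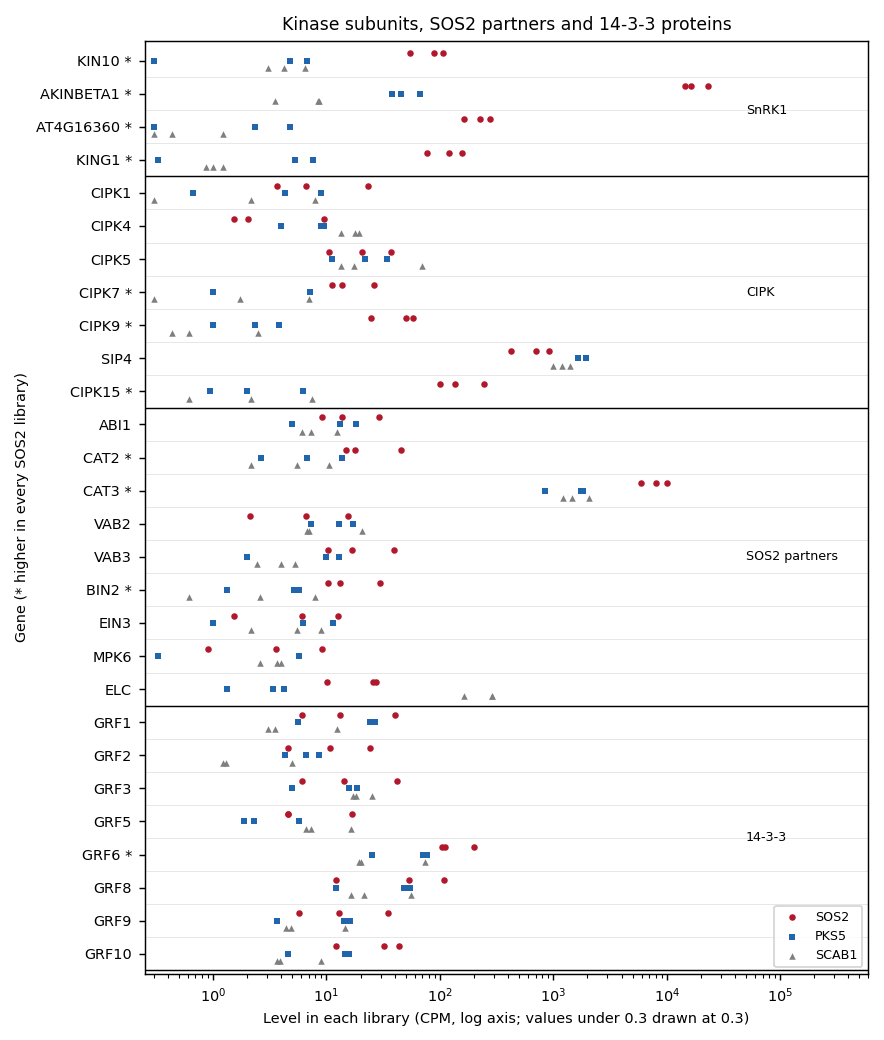
Levels (CPM, log axis) of the tested SnRK1 subunits, CIPK kinases, further SOS2 partners and 14-3-3 proteins in each library, with red circles for SOS2, blue squares for PKS5 and grey triangles for SCAB1. Asterisks mark genes higher in every SOS2 library, among them all 4 SnRK1 subunits, and SIP4 is drawn once, with the CIPK kinases.

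Beyond these lists, 16 of 56 protein kinases and 5 of 15 protein phosphatases were preys, 28.6% and 33.3% against 21.0% of all tested genes. Of the kinases 17 were called higher and 12 lower, and of the phosphatases 5 higher and 4 lower, where 27.2% and 13.4% of all tested genes were called. The kinases among the preys averaged 11.8 to 160 CPM in SOS2, the highest being CIPK15, given above. PK1, a ribosomal S6 kinase, had 95.2, 83 and 228 CPM in the SOS2 libraries, against at most 29 CPM in any other library. VIK, a kinase that binds a vascular receptor kinase, had 99.3, 170.0 and 122 CPM in the SOS2 libraries, against at most 7.87 CPM in any other library. Of the PPP family of phosphatase catalytic subunits, 5 of 7 tested genes were preys. PP7 had 125, 44 and 43.2 CPM in the SOS2 libraries, against at most 7.49 CPM in any other library. PP2A-4 had 83.8, 35.8 and 35.9 CPM in the SOS2 libraries, against at most 13.9 CPM in any other library, while its relative PP2A-3 overlapped, at 41.9, 7.17 and 6.39 CPM in SOS2 and up to 24.9 CPM elsewhere. TOPP5 and TOPP1 are type 1 phosphatases, and both were preys at low levels. Both stayed under the filter level of 4.74 CPM in every other library, so they could be tested only by being higher in SOS2. TOPP5 had 62.4, 34.3 and 45.3 CPM in the SOS2 libraries, against at most 4.31 CPM in any other library. TOPP1 had 23.7, 16.4 and 14.3 CPM in the SOS2 libraries, against at most 3.83 CPM in any other library, and FYPP1, which binds phytochrome, had 54.6, 29.7 and 54.4 CPM in the SOS2 libraries, against at most 8.14 CPM in any other library. By distinct reads PK1, PP7, PP2A-4 and TOPP5 were not called, with log2 differences of 0.0077, 0.77, 0.064 and 0.85. These families, and the others below, were put together after values had been seen, each from all its genes with a RefSeq text.

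Amino acid and one-carbon metabolism held 20 preys among 45 tested genes (23 called higher, 7 lower), with a median log2 difference of 1.02. At its centre was the cycle that turns methionine into S-adenosylmethionine, the methyl donor of the cell, and recovers methionine from the S-adenosylhomocysteine left after methyl transfer. Of its 11 tested genes 8 were preys, including 3 of the 4 S-adenosylmethionine synthetases. SAM-2 had 4579.9, 4049 and 5618 CPM in the SOS2 libraries, against 92.4, 34 and 121 CPM in PKS5 and 487, 402 and 425 CPM in SCAB1. MAT3 had 870.2, 687 and 1038 CPM in the SOS2 libraries, against 25.1, 28.1 and 52.6 CPM in PKS5 and 26, 15.3 and 13.4 CPM in SCAB1. MTO3 was closer to SCAB1, with 2997, 1879 and 3014 CPM in the SOS2 libraries, against 199.9, 99.5 and 286 CPM in PKS5 and 1589.9, 1571 and 1274 CPM in SCAB1. The most recovered synthetase, SAM1, was no SOS2 prey by the rule, at 16138, 20149 and 21164 CPM in SOS2, 239, 125 and 419 CPM in PKS5 and 31743, 35983 and 35957 CPM in SCAB1. All 4 thus had higher levels in every SOS2 library than in any PKS5 library, and SAM1 was highest with SCAB1.

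Both S-adenosylhomocysteine hydrolases were preys. HOG1 had 2999, 1862 and 2767 CPM in the SOS2 libraries, against 164, 49.2 and 217 CPM in PKS5 and 426, 365 and 274 CPM in SCAB1. SAHH2 had 476, 332 and 458 CPM in the SOS2 libraries, against 41.7, 16.2 and 43.1 CPM in PKS5 and 31.5, 14 and 8.54 CPM in SCAB1. Neither overlapped between SOS2 and the other baits. Of the methionine synthases, ATMS1 was a prey, with 529.6, 313 and 489 CPM in the SOS2 libraries, against at most 142 CPM in any other library, whereas MS2 was recovered mainly with SCAB1, at 2137, 1728 and 3223 CPM in SOS2, 79.6, 51.5 and 141 CPM in PKS5 and 41255, 48481 and 49066 CPM in SCAB1. The methylenetetrahydrofolate reductases, which supply the methyl group, also split. MTHFR2 had 31, 14.9 and 30.7 CPM in the SOS2 libraries, against at most 5.0 CPM in any other library, and MTHFR1 had 34.2, 14.9 and 17 CPM in SOS2, against 133, 70.4 and 83.3 CPM in PKS5 and 209, 48.1 and 124 CPM in SCAB1. SAMC1, which carries S-adenosylmethionine across organelle membranes, had 87.4, 33.3 and 49.6 CPM in the SOS2 libraries, against at most 11.5 CPM in any other library. MTHFR2 reached the filter level of 4.74 CPM outside SOS2 only in SCAB1-1, too few libraries to be tested without SOS2.

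Enzymes of nitrogen assimilation and of gamma-glutamyl compounds were further preys. All 3 tested cytosolic glutamine synthetases met the rule. GLN1.3 had 1937, 1263 and 2217 CPM in the SOS2 libraries, against 20.8, 8.59 and 21.5 CPM in PKS5 and 419.7, 438 and 313 CPM in SCAB1. GSR2 had 1774, 1353 and 1641 CPM in the SOS2 libraries, against 47.4, 18.8 and 60.8 CPM in PKS5 and 145, 109 and 101 CPM in SCAB1. The third, GSR 1, was far lower, with 74.7, 34.8 and 61.7 CPM in the SOS2 libraries, against at most 19.4 CPM in any other library. NIA2, the major nitrate reductase, had 916, 574 and 825 CPM in the SOS2 libraries, against 102, 30.7 and 102 CPM in PKS5 and 168, 118 and 116 CPM in SCAB1, and the nitrate transporter NRT1.1 just cleared the other baits, with 82.4, 41.5 and 47.1 CPM in the SOS2 libraries, against at most 35.4 CPM in any other library. Of 10 listed enzymes that act on gamma-glutamyl bonds, in glutathione and folate, 7 were in the table and 4 were tested. All 4 met the rule, with a median log2 difference of 6.60. OXP1 and GGH2 reached the filter level of 4.74 CPM only in SOS2 libraries, so they could be tested only by being higher there. GGT4, GGP3 and GGH1 had too few reads to be tested and did not meet the rule. GGT1 (AT4G39640), a gamma-glutamyl transpeptidase, had 2038, 1660.3 and 2325 CPM in the SOS2 libraries, against 16.1, 10.2 and 24.4 CPM in PKS5 and 20, 3.93 and 4.88 CPM in SCAB1. GGP1, a gamma-glutamyl peptidase, had 3945, 2859 and 4639 CPM in the SOS2 libraries, against 76.3, 37 and 116 CPM in PKS5 and 77.4, 25.4 and 23.2 CPM in SCAB1. OXP1, the oxoprolinase that returns glutamate from glutathione, had 381, 306 and 517 CPM in the SOS2 libraries, against at most 3.79 CPM in any other library. GGH2, a gamma-glutamyl hydrolase of folates, had 161, 189 and 234 CPM in the SOS2 libraries, against at most 4.31 CPM in any other library. The lowest SOS2 level of these 4 was 24.6 to 80.7 times the highest level elsewhere.

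Glycolysis and carbohydrate metabolism held 15 preys among 40 tested genes (22 called higher, 3 lower), with a median log2 difference of 1.49. G6PD6, a cytosolic glucose-6-phosphate dehydrogenase, had 1841, 1453 and 1494 CPM in the SOS2 libraries, against 10.9, 3.97 and 12.4 CPM in PKS5 and 551, 910.2 and 499 CPM in SCAB1, so that SCAB1 libraries also held it. FBA6, a cytosolic aldolase, had 1564, 887 and 1528 CPM in the SOS2 libraries, against 50.7, 8.92 and 34.9 CPM in PKS5 and 67, 48.1 and 39.6 CPM in SCAB1. ATBETAFRUCT4, a vacuolar invertase, had 892, 999 and 1376 CPM in the SOS2 libraries, against 9.48, 4.96 and 14.4 CPM in PKS5 and 8.99, 2.19 and 3.66 CPM in SCAB1. FBA6 and ATBETAFRUCT4 were far lower with both other baits. Of 8 listed malate dehydrogenases 4 were tested, and all 4 were preys. Their means in SOS2 ran from 8.68 CPM for the peroxisomal PMDH1 to 502 CPM for the cytosolic c-NAD-MDH1. PMDH1 stayed under the filter level of 4.74 CPM in every other library, so it could be tested only by being higher in SOS2. c-NAD-MDH1 had 642, 315 and 549.5 CPM in the SOS2 libraries, against at most 149 CPM in any other library. The ATP-citrate lyase that makes cytosolic acetyl-CoA had 5 genes in the table and 2 that were tested. These were the A subunits ACLA-1 and ACLA-3, both preys. ACLA-3 reached the filter level outside SOS2 only in SCAB1-1, too few libraries to be tested without SOS2. ACLA-2, ACLB-1 and ACLB-2 had too few reads to be tested and overlapped with the other baits. ACLA-1 had 238, 135 and 308 CPM in the SOS2 libraries, against at most 23.5 CPM in any other library, and ACLA-3 had 48.7, 19.5 and 49.9 CPM in the SOS2 libraries, against at most 6.5 CPM in any other library.

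Mitochondrial respiration and ATP synthase gave 5 preys among 15 tested genes, 33.3% against 21.0% of all tested genes. Of the 15, 5 were called higher and 5 lower, with a median log2 difference of 0.0074, against 0.16 over all tested genes. Subunits of succinate dehydrogenase made up 4 of the preys, and of the 8 tested subunits 4 were called higher and 2 lower. SDH6, SDH7 and SDH8 are subunits that plants have in addition to the core of the enzyme. SDH8 had 2526, 3092 and 2563 CPM in the SOS2 libraries, against 805, 271 and 916 CPM in PKS5 and 1629, 579 and 727 CPM in SCAB1. SDH7 had 349, 194 and 429 CPM in the SOS2 libraries, against at most 118 CPM in any other library, and SDH6 had 261, 180.3 and 369 CPM in the SOS2 libraries, against at most 50.3 CPM in any other library. SDH8 was common to all baits. By distinct reads none of the 3 kept its call, with log2 differences of -0.23 for SDH8, 0.19 for SDH7 and 0.52 for SDH6. SDH5 was instead highest with SCAB1, with 88.8, 27.1 and 19.5 CPM in the SOS2 libraries, against 35.5, 7.6 and 47.4 CPM in PKS5 and 171, 176 and 142 CPM in SCAB1. SDH4, which was called lower, had 90.6, 70.2 and 24 CPM in the SOS2 libraries, against 149.7, 72.4 and 50.3 CPM in PKS5 and 284, 60.8 and 143 CPM in SCAB1. Vitamin synthesis gave 4 preys among 11 tested genes: RSR4 and BIO2, given above, MTHFR2, and CYT1, which makes the GDP-mannose needed for vitamin C, with 90.2, 80.4 and 43.2 CPM in the SOS2 libraries, against at most 18.7 CPM in any other library.

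Of 11 listed papain-like proteases 6 were tested and 5 were preys, where 21.0% of all tested genes were. CEP1 could be tested only by being higher in SOS2. RD19 had 3906, 3104 and 5202 CPM in the SOS2 libraries, against 375, 143 and 452 CPM in PKS5 and 1444, 1367 and 1297 CPM in SCAB1. ALP, an aleurain-like protease of the vacuole, had 1769, 1439 and 1789.9 CPM in the SOS2 libraries, against 90.5, 29.7 and 90.5 CPM in PKS5 and 67, 23.6 and 22.6 CPM in SCAB1. RD21A had 1469.9, 939 and 1313 CPM in the SOS2 libraries, against 28, 5.95 and 38.8 CPM in PKS5 and 89.4, 96.2 and 76.2 CPM in SCAB1. RD21B followed with 303, 343 and 299 CPM in the SOS2 libraries, against at most 37.3 CPM in any other library, and CEP1 had 17.8, 13.8 and 8.82 CPM in SOS2 and no read elsewhere. RD19 was thus also common with the other baits, and ALP was rare with them.

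Proteasome genes gave 6 preys among 25 tested, 24% against 21.0% of all tested genes, with 6 called higher and 2 lower. RPT1A, an ATPase of the regulatory particle, had 758, 525 and 950.0 CPM in the SOS2 libraries, against 17.1, 5.29 and 19.6 CPM in PKS5 and 12.5, 7.0 and 4.27 CPM in SCAB1. RPT2a is given above, and its copy RPT2b was recovered mainly with PKS5, at 309, 287 and 224 CPM in SOS2, 4508, 5678 and 6519.7 CPM in PKS5 and 32.5, 24.5 and 17.7 CPM in SCAB1. In the 20S core, 4 of 16 tested subunits were preys. PAD1 had 404, 228 and 368 CPM in the SOS2 libraries, against 11.8, 0.991 and 4.79 CPM in PKS5 and 5.0, 3.5 and 3.05 CPM in SCAB1. PBC1 had 274, 197 and 338 CPM in the SOS2 libraries, against 13.7, 4.63 and 6.7 CPM in PKS5 and 9.99, 1.75 and 4.27 CPM in SCAB1. PAD1 and PBC1 were rare with the other baits. PAE2 had 191, 83 and 142 CPM in the SOS2 libraries, against at most 28.5 CPM in any other library, and PAG1 had 102, 76.8 and 94 CPM in the SOS2 libraries, against at most 37.5 CPM in any other library. PBG1 was called lower, at 21.4, 8.19 and 4.87 CPM, against 75.3, 37.3 and 115 CPM in PKS5 and 9.99, 3.06 and 6.1 CPM in SCAB1 (log2 difference -1.44 with SE 0.35 and limma-voom adjusted p = 0.00192). The 16 core subunits had a median log2 difference of -0.08, against 0.16 over all tested genes.

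Ubiquitin pathway genes gave 9 preys among 60 tested, 15% against 21.0% of all tested genes, with 14 called higher and 16 lower. FKF1, ZTL, LKP2, POB1 and LRB1, given below, were not assigned to this class by their text and are not in these counts. The class share is thus understated. UBA1, a ubiquitin-activating enzyme, had 459.9, 283 and 676 CPM in the SOS2 libraries, against at most 65.6 CPM in any other library. UBC10, a conjugating enzyme, had 369, 223 and 327 CPM in the SOS2 libraries, against at most 90.4 CPM in any other library, and AT2G45695 (ubiquitin-related modifier 11) had 217, 168 and 119.8 CPM in the SOS2 libraries, against at most 17.1 CPM in any other library. A small family of blue-light receptors that are F-box parts of ubiquitin ligases, and time the clock and flowering, was complete among the preys. FKF1 had 643, 425 and 737 CPM in the SOS2 libraries, against 138, 54.9 and 168 CPM in PKS5 and 174, 62.5 and 96.9 CPM in SCAB1. ZTL had 209, 86.6 and 224 CPM in the SOS2 libraries, against 0, 0 and 0.957 CPM in PKS5 and 2.0, 0.437 and 0 CPM in SCAB1. LKP2 had 61, 73.2 and 64.2 CPM in the SOS2 libraries, against 14.7, 0.661 and 2.87 CPM in PKS5 and 3.5, 1.31 and 0.61 CPM in SCAB1. FKF1 was recovered with every bait, ZTL almost not with the others. ZTL stayed under the filter level of 4.74 CPM in every other library, and LKP2 reached it there only in PKS5-1. Both could thus be tested only by being higher in SOS2. POB1 (also LRB2) and LRB1, BTB adaptors of cullin 3 ligases that act on phytochrome B, were both preys. POB1 had 3813, 2578 and 4395 CPM in the SOS2 libraries, against 14.2, 10.9 and 26.8 CPM in PKS5 and 7.49, 0.437 and 1.83 CPM in SCAB1. LRB1 had 1891, 1632 and 2055 CPM in the SOS2 libraries, against 547, 323 and 725 CPM in PKS5 and 350.3, 574 and 317 CPM in SCAB1. The copies thus differed in how far they stood from the other baits, 96.2 times for POB1 and 2.25 times for LRB1.

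Redox and detoxification held 19 preys among 59 tested genes (21 called higher, 4 lower), including all 3 catalases. Of 8 tested class III peroxidases, which work in the cell wall, 6 were preys, and of 16 glutathione S-transferases 5. PRXCB had 2378, 1865 and 2208 CPM in the SOS2 libraries, against 60.6, 11.9 and 45.5 CPM in PKS5 and 451, 428 and 324 CPM in SCAB1. PRXR1 had 2113, 1931 and 2055 CPM in the SOS2 libraries, against 276, 141 and 305 CPM in PKS5 and 204, 76.9 and 99.4 CPM in SCAB1. GSTF9, a glutathione S-transferase of the phi class, had 1944, 1019.7 and 2477 CPM in the SOS2 libraries, against 237, 153 and 332 CPM in PKS5 and 216, 72.6 and 58.5 CPM in SCAB1. PRXCB was recovered more with SCAB1 than with PKS5, and PRXR1 more with PKS5. CAT1 had 56, 32.3 and 61.1 CPM in the SOS2 libraries, against at most 3.83 CPM in any other library. This was under the filter level of 4.74 CPM, so CAT1 could be tested only by being higher in SOS2. CAT2 and CAT3 were not called by distinct reads, as given above.

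Defence and specialised metabolism held 21 preys among 58 tested genes (25 called higher, 6 lower), among them 4 of 20 cytochrome P450 and 4 of 8 UDP-glucosyltransferase genes. CYP705A19 had 1222, 857 and 1213 CPM in the SOS2 libraries, against 9.0, 1.65 and 13.9 CPM in PKS5 and 7.0, 3.5 and 2.44 CPM in SCAB1. CYP94B3, which inactivates jasmonoyl-isoleucine, had 918, 566 and 1138 CPM in the SOS2 libraries, against 32.2, 16.2 and 41.2 CPM in PKS5 and 62, 31.9 and 39.6 CPM in SCAB1. Of the tested genes of jasmonate synthesis and turnover, OPR3 and OPR1 were preys too. OPR3, the reductase of jasmonate synthesis, had 375, 209 and 468 CPM in the SOS2 libraries, against at most 32.1 CPM in any other library, and OPR1 had 566, 365 and 338 CPM in the SOS2 libraries, against at most 117 CPM in any other library.

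Enzymes on the route from phenylalanine to lignin gave 8 preys among 14 tested genes, with a median log2 difference of 2.47. C4H, the cinnamate hydroxylase, had 278, 175 and 362 CPM in the SOS2 libraries, against 11.4, 3.3 and 6.22 CPM in PKS5 and 7.99, 3.5 and 1.83 CPM in SCAB1. HCT, the hydroxycinnamoyl transferase, had 1061, 489 and 1134 CPM in the SOS2 libraries, against 17.1, 5.29 and 27.3 CPM in PKS5 and 15, 7.0 and 6.1 CPM in SCAB1. CCR1, the cinnamoyl-CoA reductase, had 440.3, 643 and 666 CPM in the SOS2 libraries, against 23.2, 7.93 and 29.7 CPM in PKS5 and 29, 8.31 and 12.2 CPM in SCAB1. These 3 were rare in every PKS5 and SCAB1 library. CCR2 was low, with 31.4, 18.9 and 19.8 CPM in the SOS2 libraries, against at most 1.5 CPM in any other library. This was under the filter level of 4.74 CPM, so CCR2 could be tested only by being higher in SOS2. CAD9, of the cinnamyl alcohol dehydrogenase family, had 1006, 599 and 1133 CPM in the SOS2 libraries, against at most 20.7 CPM in any other library, and ELI3-1 and ELI3-2 of the same family were preys that the other baits recovered more often, at up to 192 and 128 CPM. In SOS2 ELI3-1 had 668, 418 and 919 CPM and ELI3-2 had 349, 169.5 and 327 CPM. The methyltransferase CCoAOMT1 just cleared SCAB1, with 234, 117 and 138 CPM in the SOS2 libraries, against at most 95.9 CPM in any other library. The 3 tested phenylalanine ammonia-lyases, the first step, were no preys. PAL1 had 23.7, 10.8 and 6.99 CPM in SOS2, against 9.0, 1.65 and 23 CPM in PKS5 and 393, 729 and 537 CPM in SCAB1.

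Actin, tubulin and motor proteins gave 9 preys among 38 tested genes, 23.7% against 21.0% of all tested genes, with 12 called higher and 4 lower. Microtubules are built from alpha and beta tubulin in equal number, and the preys were beta-tubulins in 4 of 9 tested genes and alpha-tubulins in 0 of 5. TUB3 had 3013, 3800.1 and 3390.1 CPM in the SOS2 libraries, against 72.5, 29.1 and 75.1 CPM in PKS5 and 69, 20.1 and 17.1 CPM in SCAB1. TUB2 had 2014, 2455 and 2174 CPM in the SOS2 libraries, against 33.6, 14.2 and 51.2 CPM in PKS5 and 28.5, 4.37 and 4.88 CPM in SCAB1. TUB5 had 536, 272 and 574 CPM in the SOS2 libraries, against 26.5, 8.59 and 40.2 CPM in PKS5 and 22, 9.18 and 5.49 CPM in SCAB1. TUB7 was lower, with 78.8, 35.8 and 58.4 CPM in the SOS2 libraries, against at most 10.1 CPM in any other library. TUB6, in contrast, had 403, 268 and 150.2 CPM in the SOS2 libraries, against 307, 135 and 249 CPM in PKS5 and 349, 117 and 162 CPM in SCAB1, and TUB1, TUB4, TUB8 and TUB9 overlapped in the same way. The alpha-tubulins ranged from 8.51 to 164 CPM in SOS2 and from 5.62 to 127 CPM elsewhere, and 0 of the 5 were called in either direction. TUB2 and TUB3 are near-identical copies, and the same holds for several actins, peroxidases and S-adenosylmethionine synthetases above, so that the division of reads between copies is uncertain.

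**Figure D5:**
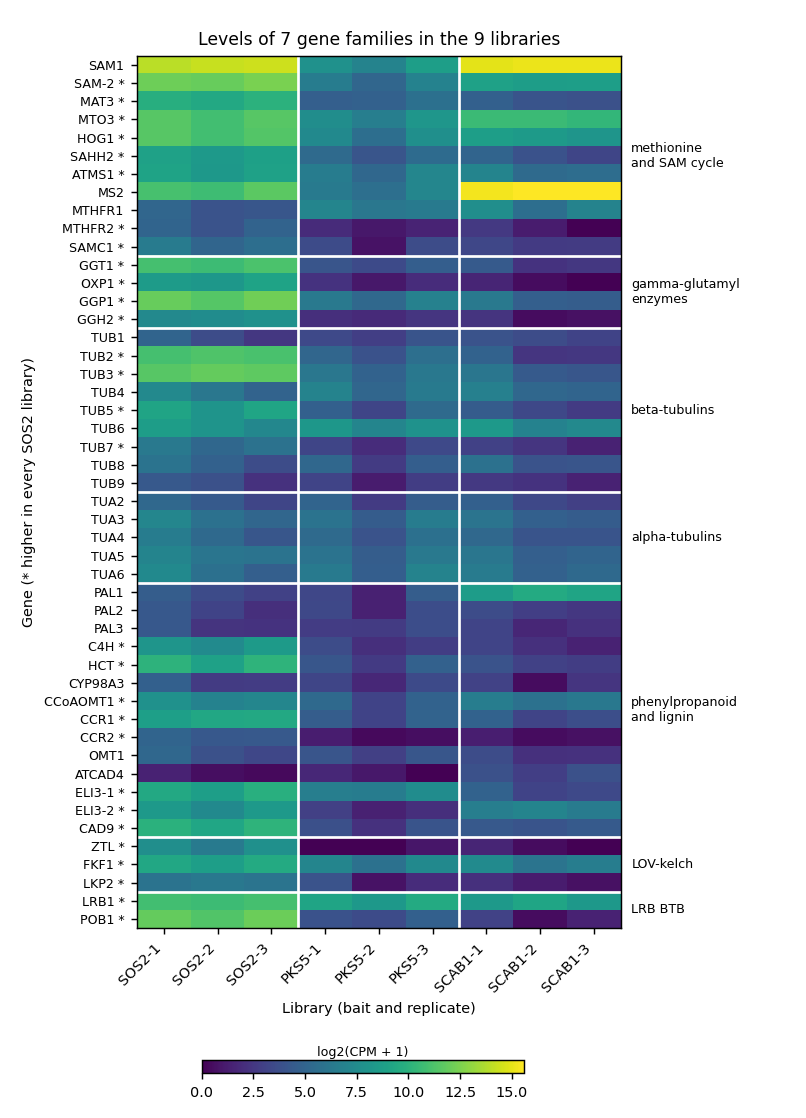
Levels, as log2(CPM + 1), of all tested genes of 7 families in the 9 libraries, with the SOS2 libraries at the left and lighter colours for higher levels. Asterisks mark genes higher in every SOS2 library, 8 of 11 in the methionine cycle, 4 of 9 beta-tubulins and 0 of 5 alpha-tubulins.

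Vesicle traffic gave 8 preys among 60 tested genes, 13.3% against 21.0% of all tested genes, with 13 called higher and 7 lower. HAP13, the mu subunit of an adaptor complex of the trans-Golgi network, had 1489.9, 1152 and 2578 CPM in the SOS2 libraries, against 18, 5.62 and 28.7 CPM in PKS5 and 16.5, 7.0 and 12.8 CPM in SCAB1. ZAC, an ARF GTPase-activating protein, had 272, 191 and 246 CPM in the SOS2 libraries, against 1.42, 1.65 and 2.39 CPM in PKS5 and 0.50, 0 and 0 CPM in SCAB1. Both were rare with the other baits. ARFA1E, an ARF GTPase, was recovered with all baits, at 597, 364 and 450.1 CPM in SOS2, against at most 302 CPM elsewhere, and by distinct reads its log2 difference was -0.06. Transporters, pumps and channels gave 11 preys among 80 tested genes, 13.75% against 21.0% of all tested genes, with 18 called higher and 12 lower. The preys averaged 16.9 to 65.3 CPM in SOS2. NIP1;2, an aquaporin-like channel, had 71, 42.5 and 82.4 CPM in the SOS2 libraries, against at most 24 CPM in any other library, and CNGC5, a cyclic nucleotide-gated channel, had 67.4, 39.4 and 85.5 CPM in the SOS2 libraries, against at most 5.5 CPM in any other library.

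Cell wall genes gave 26 preys among 98 tested, 26.5% against 21.0% of all tested genes, with 32 called higher and 23 lower. MAN1, an endo-beta-mannanase, had 947, 1036 and 826 CPM in the SOS2 libraries, against 8.05, 0.33 and 14.8 CPM in PKS5 and 0.999, 1.31 and 1.83 CPM in SCAB1. EXPA8, an expansin that loosens walls, had 685, 384 and 899.5 CPM in the SOS2 libraries, against 11.4, 5.62 and 22.5 CPM in PKS5 and 12, 3.93 and 3.05 CPM in SCAB1. XTH4, a xyloglucan endotransglucosylase, was recovered with every bait, with 688, 348 and 649 CPM in the SOS2 libraries, against 159, 44.9 and 123 CPM in PKS5 and 298, 218 and 204 CPM in SCAB1. Of the 13 tested expansins and related genes 4 were preys, of the 10 xyloglucan endotransglucosylases 3 and of the 21 arabinogalactan proteins 2. Lipid metabolism gave 15 preys among 58 tested genes, 25.9% against 21.0% of all tested genes, with 19 called higher and 8 lower. PLA2-ALPHA, a secreted phospholipase, had 629, 534 and 421 CPM in the SOS2 libraries, against at most 14.5 CPM in any other library. KAT5, a thiolase of fatty acid breakdown, had 469, 316 and 649 CPM in the SOS2 libraries, against at most 4.79 CPM in any other library. LTP5, a lipid transfer protein, was closer to the other baits, with 307, 199 and 290.4 CPM in the SOS2 libraries, against at most 119 CPM in any other library.

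Transcription factors and coregulators gave 25 preys among 131 tested genes, 19.1% against 21.0% of all tested genes, with 42 called higher and 11 lower. RRS1, a disease resistance protein with a WRKY domain, had 1339, 933 and 2069 CPM in the SOS2 libraries, against 30.3, 11.9 and 19.6 CPM in PKS5 and 20.5, 4.81 and 4.88 CPM in SCAB1. NAC027 had 801, 403 and 875 CPM in the SOS2 libraries, against 19.4, 9.25 and 33.5 CPM in PKS5 and 11, 4.81 and 8.54 CPM in SCAB1. MYB112 had 638, 328 and 979 CPM in the SOS2 libraries, against 3.32, 0.33 and 8.61 CPM in PKS5 and 2.0, 1.75 and 1.22 CPM in SCAB1. All 3 were rare in every other library, at 33.5 CPM or less. The NAC family gave 5 preys among 11 tested genes, NAC027, RD26, ATAF1, ATAF2 and NAP, at means of 40.4 to 693 CPM in SOS2. MYB factors gave 4 among 13 and homeobox factors 1 among 17. BZIP17 and BZIP28, membrane-bound factors that are released when proteins misfold in the endoplasmic reticulum, were both preys. BZIP17 had 506, 419 and 374 CPM in the SOS2 libraries, against 0.948, 0.991 and 1.44 CPM in PKS5 and 14.5, 21 and 11.6 CPM in SCAB1. BZIP28 had 161, 66.6 and 188 CPM in the SOS2 libraries, against 0.948, 0.33 and 1.91 CPM in PKS5 and 25.5, 28.4 and 17.7 CPM in SCAB1. Of the other baits, SCAB1 held more reads of both than PKS5 did.

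RNA-binding and RNA-degrading proteins gave 9 preys among 33 tested genes, 27.3% against 21.0% of all tested genes, with 9 called higher and 3 lower. RNS2, a ribonuclease of the T2 type, had 574, 411 and 478 CPM in the SOS2 libraries, against at most 19 CPM in any other library. RNS3, of the same type, had 423, 220.2 and 556 CPM in the SOS2 libraries, against at most 15.5 CPM in any other library. CRB, a chloroplast RNA-binding protein, had 414, 239 and 379 CPM in the SOS2 libraries, against at most 99.9 CPM in any other library. Translation factors gave 3 preys among 18 tested genes, 16.7% against 21.0% of all tested genes. LSP1, the cap-binding factor eIFiso4E, had 234, 283 and 246 CPM in the SOS2 libraries, against 15.6, 5.95 and 20.1 CPM in PKS5 and 9.99, 3.06 and 2.44 CPM in SCAB1. EIF3G2, a subunit of initiation factor 3, had 303, 174 and 275 CPM in the SOS2 libraries, against 1.9, 1.65 and 5.26 CPM in PKS5 and 0.999, 0.874 and 0.61 CPM in SCAB1. ERF1-2, a release factor, had 59.2, 38.9 and 29.5 CPM in the SOS2 libraries, against at most 4.74 CPM in any other library. Chromatin genes gave 3 preys among 26, AT5G10980 (histone 3.3), H2AXA and MET1, the maintenance DNA methyltransferase, which had 63.7, 18.4 and 36.2 CPM in the SOS2 libraries, against at most 10.9 CPM in any other library. Abscisic acid receptors, whose phosphatase targets SOS2 binds in plants, gave 1 prey among 6 tested genes. PYL5 had 1870.1, 2151 and 1873 CPM in the SOS2 libraries, against 237, 111 and 253 CPM in PKS5 and 1359, 1035 and 1420.0 CPM in SCAB1. It was not called against SCAB1 alone (log2 difference 0.12 and limma-voom adjusted p = 0.902). Of the other receptors, PYR1 was called higher with overlapping libraries and RCAR3 was called lower.

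Only 34 genes, 0.892% of those tested, were lower in every SOS2 library than in any other. The 5 with the highest levels elsewhere were AT1G61170, AT1G70790, AT3G47490, MYB3 and TSA1. MYB3, a repressor of phenylpropanoid genes, had 2471, 2816 and 3815 CPM in the SOS2 libraries, against 23726, 20884 and 24792 CPM in PKS5 and 12122, 14238 and 11405 CPM in SCAB1. TSA1, a protein of endoplasmic reticulum bodies, had 1395, 815 and 1899 CPM in the SOS2 libraries, against 3762, 4147 and 5573 CPM in PKS5 and 12384, 14789.8 and 13125 CPM in SCAB1. AT1G61170, AT1G70790 and AT3G47490 averaged 6567 ± 2111 CPM, 4747 ± 406 CPM and 13124 ± 3421 CPM in SOS2, against 279448 ± 41256 CPM, 123601 ± 9935 CPM and 89480.5 ± 7132 CPM in PKS5 and 15409 ± 1595 CPM, 38201 ± 3649 CPM and 18848 ± 313 CPM in SCAB1 (SD, n = 3 libraries per bait). All 5 were called lower, with log2 differences of -3.75 for AT1G61170, -4.23 for AT1G70790, -2.06 for AT3G47490, -2.93 for MYB3 and -3.03 for TSA1 (limma-voom adjusted p = 5.07e-05, 6.66e-06, 0.0172, 0.000383 and 0.000158). They were not absent from SOS2, where no library held less than 815 CPM of any of them. Leaving out SOS2-1 or SOS2-2 ended the call of AT3G47490 (adjusted p = 0.0891 and 0.0504 by limma-voom). By distinct reads AT3G47490 and TSA1 were not called, at -0.20 and -0.43 (limma-voom adjusted p = 0.482 and 0.0996).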

How the data were processed

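The table deposited by the authors gives, per the file headers, whole-number read counts and numbers of distinct (unique) reads per gene and library, with "n.d." in empty cells, which were read as 0 here. Cutadapt 1.18, CASAVA, HISAT2 and TAIR10 are named in the submitters' processing notes, with no order of steps. Because of the marks, the columns were treated as count-like values without a fixed unit, and limma-voom took the place of count models. Genes entered the test if they reached 10 reads at the median library size (4.74 CPM) in 3 libraries and 15 reads in all. TMM factors were recomputed and bait means were fitted over all 9 libraries in R 4.3.3 with limma 3.58.1 (robust empirical Bayes), with Benjamini-Hochberg adjustment over 3811 genes. CPM was taken from library totals without TMM factors. The distinct-read column of SCAB1-3 equals that of SCAB1-2 in all 10224 genes and was left out.

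The preys, gene lists, classes and families were chosen with earlier results of these data known. Genes were named by rule: ranks 11 to 30, the 3 highest of each class with 3 or more preys, the 5 nearest the rule on either side, called genes of the lists, and the 5 highest of those lower in SOS2. Genes of families and those with a distance of 100 times or more were added after their values were seen. Gene IDs were matched to RefSeq (TAIR10.1) for 10201 of 10224, and 95 class assignments were corrected by hand. Alternatives covered scaling, filter, model, distinct reads and the omission of each library.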

Additional observations from a re-analysis of the deposited data

How the results depend on the processing

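The count of genes called higher in SOS2 was 1035, and was 494 with at least 100 reads and 454 by distinct reads. The 511 called lower became 156 with library size alone, 264 when library totals left out every gene above 5% of a library, and 236 by distinct reads. The 753 called higher against both baits became 396 with at least 100 reads and 229 by distinct reads. The 799 genes higher in every SOS2 library became 483 with at least 100 reads, 259 with a distance of at least 10 times and 382 by distinct reads. The stricter filter tests fewer genes, 1233; the cause of the other shifts was not tested. Leaving out 1 library in turn gave 820 to 1000 genes higher, 450 to 684 lower, 595 to 739 in both and 799 to 1132 by the rule. The difference in genes per library, 976.833 at 10 reads, was 522.167 at 100 reads (exact permutation p = 0.0119, unadjusted). It did not pass at 10 reads, 3 reads, 10 CPM or 2 distinct reads (exact permutation p = 0.155, 0.143, 0.167 and 0.0893). Same-numbered libraries share a recovery time. The correlations of their deviations ran from -0.017 to 0.221 over 9 pairs and were not over 0.1 in every pair, so the numbers were not taken as pairing, and a replicate block gave 1082 higher, 578 lower and 782 in both. Of 2025 values of named genes under 18 settings, 1881 kept direction and call and 134 lost the call. Under distinct reads 9 genes changed sign: SDH8 to -0.23, NRT1.1 to -0.012, ARFA1E to -0.062, AT5G10980 to -0.0011, CBSX3 to -0.081, ENODL18 to -0.43, SDR3 to -0.45, SIP4 to 0.14 and PBG1 to 0.21 (cause not tested). With library size alone 10 named genes lost their calls: CIPK4, VAB2, VAB3, GRF10, PBG1, GRF2, SDH2-2, CBSX3, SCPL49 and ENODL18 (adjusted p = 0.152, 0.565, 0.0568, 0.0637, 0.387, 0.23, 0.131, 0.0817, 0.0721 and 0.0659 by limma-voom).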
